A study of Mus musculus with 2 samples.

Results

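The genes described are 10 transcription factors and corepressors of the Purkinje cell lineage: Lhx1, Lhx5, Foxp2, Foxp4, Skor2, Ebf1, Ebf3, Rora, En1 and En2. They were chosen by name, and all 10 were found by symbol among 43346 genes with an Ensembl identifier. RNA came from 2 pools of 30 Purkinje cells each, cut from the cerebellum of adult male mice of 14 months by laser capture. The mice were B6CASTF1/J, an F1 cross of C57BL/6 and CAST strains with no other allele or treatment named in the labels. The pools are biological replicates 1 and 2 of a single group with the same donor identifier, so an SD between them may be technical. No condition is compared, and the values describe which factors of development the adult cells still carried as RNA.

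Purkinje cells are born in the ventricular zone of the embryonic cerebellum from progenitors that use Ptf1a. As they leave the cell cycle they switch on the LIM homeodomain factors Lhx1 and Lhx5 and the corepressor Skor2, then forkhead factors of the FOXP family and early B-cell factors. The engrailed genes pattern the cerebellar field before this, and the nuclear receptor RORα, the product of Rora, drives dendrite growth and is missing in the staggerer mouse.

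The totals were 31503819 expected counts, which are estimated reads, in pool 1 and 28709397 in pool 2. Levels of genes are given as TPM, a measure of transcript abundance that corrects for length and sums to the same total in each library, and a gene is called detected where its TPM reaches 1. Checked against the label, 9 of 9 Purkinje markers were detected in both pools, with a summed level of 31122 TPM in pool 1 and 30882 in pool 2. Of Bergmann glia and astrocyte markers 9 of 10 were detected in both pools, with a summed TPM of 2183 and 3890. Slc1a3 was the highest at 1310 and 2298 TPM, then Gja1 at 401 and 842, and Gfap the lowest at 0.5 and 0.47. Of granule cell markers 4 of 8 were detected in both pools (29.4 and 39.03). Of the markers listed for molecular layer interneurons 4 of 7 were (217 and 478), but most of that sum was Npy, at 135 and 411. Kit had 2.38 and 1.62 TPM and Tfap2b 0.53 and 0.63. Markers detected in both pools were 4 of 7 for oligodendrocytes (37.2 and 53.5) and 1 of 6 for microglia (4.01 and 3.26). For endothelial and mural cells they were 3 of 8 (21.2 and 15.2) and for red blood cells 4 of 5 (2453 and 16.3). The part of these cells in the levels below was not tested. In such pools fewer cells holding a transcript and less of it per cell cannot be told apart. Reads of the CAST allele may map less well to the C57BL/6 reference, and this was not tested.

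The pools carried a graded set of these factors, with Rora far above the rest. Rora, Ebf1, Lhx1, Foxp2, Ebf3 and Foxp4, 6 of the 10, were detected in each pool, Lhx5 in pool 1 alone, and En1, En2 and Skor2 in neither. For comparison, 30.3% of 21474 protein-coding genes reached a TPM of 1 in each pool and 62.7% in neither. Every factor had reads in both pools. Foxp4, at 1.00 TPM in pool 1, and Ebf3, at 1.05, lay just above the threshold, and Lhx5, at 0.68 TPM in pool 2, lay just below it. At a TPM of at least 5 only Rora, Ebf1 and Lhx1, 3 of the 10, were left.

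**Figure D1:**
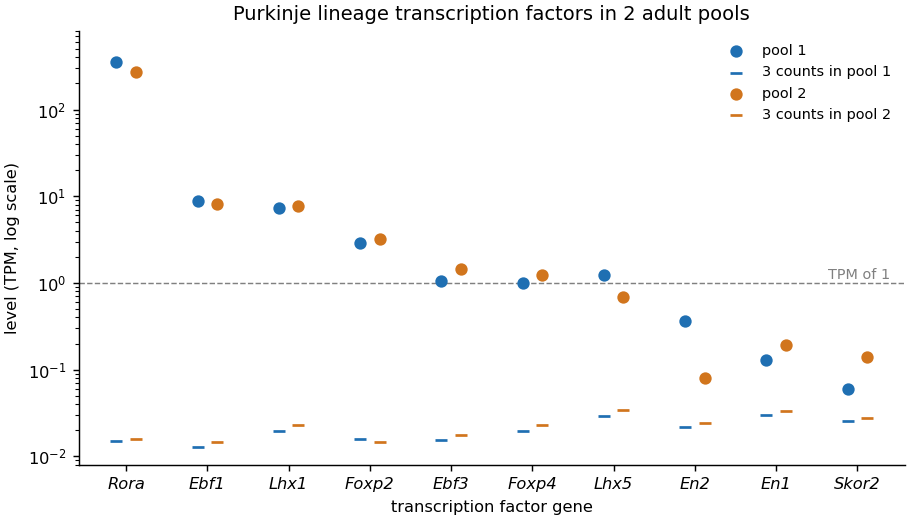
Level of each factor as TPM on a log axis, with a point for each pool and a short bar for the level that 3 counts would give in that pool, which is the limit a count of 0 allows. Rora stands at 354 and 271 TPM, the next 3 genes lie between 2.92 and 8.70, and En1, En2 and Skor2 are under 0.4 but above their bars.

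Rora encodes an orphan nuclear receptor (ENSMUSG00000032238.13, GRCm38/mm10 chromosome 9, 68653786 to 69388246, plus strand). Its level was 354 TPM in pool 1 and 271 in pool 2, from 70253 and 51575 counts. The mean was 313 ± 58.7 TPM (SD, n = 2), which ranked 244 among the protein-coding genes. Rora alone made up 93.9% of the summed TPM of the 10 factors in pool 1 and 92.2% in pool 2. Both pools placed it more than an order of magnitude above any other factor described here. It was 40.7-fold above the next, Ebf1, in pool 1 and 33.0-fold in pool 2.

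Rora was also the highest of 48 nuclear receptors. The second was Nr1d2, a repressor of the circadian clock that binds the same DNA elements as RORα, at 16.4 and 18.7 TPM in pools 1 and 2. Rora exceeded it 21.6-fold in pool 1 and 14.5-fold in pool 2. Nr2f6, an orphan receptor and the third by mean level, had 3.79 and 9.82 TPM. The close relative Rorb had 0.26 and 0.43 TPM. Of the 48 receptors 11 were detected in both pools, 4 in a single pool and 33 in neither.

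Rora RNA was divided between 2 coding transcripts that start 635896 bases apart, and which was the main one depended on the measure. Rora-201 starts at the first base of the gene and has 10878 bases, of which 9450 are its last exon. Rora-202 starts at 69289682 and has 2591 bases, with a last exon of 1013. They share 1373 coding bases and differ at the start of the protein. Rora-201 has 196 coding bases of its own, 166 in exon 1 (chr9:68653807-68653972) and 30 in exon 2 (chr9:69196075-69196104), and Rora-202 has 28 (chr9:69290021-69290048). These bases are shown because they are what separates the proteins of the transcripts. They were read 5′ to 3′ on the plus strand from GENCODE M21 transcripts, with the start codon in capitals:

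Rora-201: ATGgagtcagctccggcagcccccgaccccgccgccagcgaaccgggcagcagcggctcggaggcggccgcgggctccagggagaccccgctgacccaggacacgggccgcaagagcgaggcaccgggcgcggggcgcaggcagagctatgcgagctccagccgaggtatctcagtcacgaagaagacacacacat

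Rora-202: ATGtattttgtgatcgcagcgatgaaag

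Rora-202 held 71.1% of the gene's TPM in pool 1 and 64.1% in pool 2 (mean 67.6% ± 4.93, SD, n = 2). Rora-201 held 28.9% and 35.6% of TPM. By counts the order was turned around. Rora-201 took 44768 of the estimated reads in pool 1 and 36395 in pool 2, or 63.7% and 70.6%, and Rora-202 took 25484 and 15151. Both pools gave the same order on each measure. The measures differ because TPM divides reads by length, and Rora-201 is the longer. Reads of the shared exons are split by the authors' model, so the shares rest on it. How reads were spread along the 2 transcripts was not examined, and an uneven spread would shift the TPM shares. Of the other 4 transcripts listed for the gene, Rora-204 had 1 and 29 counts and the rest had none.

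Genes that need Rora for full expression in Purkinje cells ran over a wide range of levels. Of 6 such genes listed, 5 were detected in both pools. Pcp4, which encodes a calmodulin-binding peptide, had 26704 and 24370 TPM, and Pcp2, a regulator of G protein signalling, had 16296 and 17694. Calb1, the calcium buffer calbindin, had 2414 and 2064, and Itpr1 had 1063 and 882. Slc1a6 was far lower, at 23.7 and 11.6 TPM. Shh, the growth signal that Purkinje cells send to granule cell precursors early in life, was not detected, at 0.65 and 0.56 TPM from 68 and 51 counts. A link between these levels and that of Rora was not tested.

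Lhx1 was kept at a low level and Lhx5 at a lower one. Lhx1 (ENSMUSG00000018698.11, chromosome 11, 84518284 to 84525535, minus strand) had 7.39 TPM in pool 1 and 7.81 in pool 2, from 1124 and 1023 counts. Lhx5 (ENSMUSG00000029595.8, chromosome 5, 120431699 to 120441223, plus strand) had 1.25 and 0.68 TPM, from 128 and 60 counts. The pools did not overlap between these genes, and Lhx1 exceeded Lhx5 5.91-fold in pool 1 and 11.5-fold in pool 2. Among the 12 LIM homeodomain genes Lhx1 was the only one detected in both pools, with 83.2% of the family's summed TPM in pool 1 and 90.7% in pool 2. The third by level, Lhx3, a factor of motor neurons and pituitary, had 0.21 TPM in pool 1 and none in pool 2, and 4 members had no count in either pool. All reads of Lhx1 were assigned to Lhx1-201, 1 of 4 listed transcripts, and Lhx5 has a single one.

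Each of these genes had a noncoding gene starting beside it on the opposite strand that was far higher. Lhx1os (ENSMUSG00000087211.3, chromosome 11, 84525660 to 84535831, plus strand) starts 125 bases from the Lhx1 start and shares no exon base with it. It reached 598 TPM in pool 1 and 431 in pool 2 (mean 515 ± 118, SD, n = 2), from 10950 and 6825 counts. That was 81.0-fold the TPM of Lhx1 in pool 1 and 55.2-fold in pool 2. Lhx1os has an effective length of 451 and 453 bases in pools 1 and 2 against 3747 for Lhx1, and on counts alone the excess was 9.74-fold and 6.67-fold. It ranked 4 among 5694 long noncoding RNA genes by mean TPM.

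The 124 bases between the starts of Lhx1 and Lhx1os, chr11:84525536-84525659 on GRCm38, are shown because the pair of genes starts at either end of them. They are given 5′ to 3′ on the plus strand, the strand of Lhx1os, from RefSeq-based promoter windows of GRCm38.p6, with a CCAAT match in capitals:

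Lhx1 to Lhx1os: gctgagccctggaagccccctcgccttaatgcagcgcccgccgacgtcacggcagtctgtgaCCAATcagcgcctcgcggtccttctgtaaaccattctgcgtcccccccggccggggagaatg

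The stretch has a GC content of 66.1% and holds 12 CpG sites. CCAAT, searched on both strands, occurs in 37.4% of 32851 promoter windows of 300 bases, so this match is common. Of the 10 factors 6 had promoter windows, 7 windows in all. The windows of Lhx1, Rora and En1 held CCAAT, and none of the 7 held TATAAA (13.6% of all windows), AGGTCA, a core that nuclear receptors bind (16.3%), or TAATTA, a homeodomain core (5.29%). The Lhx1 window had 31 CpG sites and that of Rora 28, against a median of 7 over all windows. The windows of Ebf1 had 9 and 17, that of En1 23, Foxp4 33 and Ebf3 46. The only Rora window lies at the start of Rora-201, so the start of Rora-202 was not searched.

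At Lhx5 the partner was Gm27199 (ENSMUSG00000098649.1, chromosome 5, 120419659 to 120431767, minus strand), whose start lies 68 bases past that of Lhx5, so that the first exons face each other and overlap. It had 35.3 TPM in pool 1 and 24.7 in pool 2, from 714 and 431 counts. This was 28.2-fold and 36.4-fold the TPM of Lhx5, and 5.58-fold and 7.18-fold its counts. In GENCODE M21 the 2 genes share 69 exon bases, but the Lhx5 transcript there is 71 bases longer than the one in the deposited tables. Whether they overlapped in the annotation the authors counted with was not checked, and the labels do not say whether reads kept their strand, so reads of the shared bases are uncertain.

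A noncoding partner above its coding neighbour was uncommon. Of 444 head-to-head pairs of a coding and a long noncoding gene with starts within 1000 bases and a partner at a TPM of at least 1 in each pool, the noncoding gene was higher in both pools in 25, or 5.63%. The list of factors had 2 such pairs, and both were among the 25. A pair was kept where either gene reached that TPM. Lhx5 had 0.68 TPM in pool 2, so its pair was kept there through Gm27199, at 24.7. The 444 pairs were not matched for the level of the coding gene, so 5.63% does not measure how unusual the pairs of Lhx1 and Lhx5 are. Both were examined after their values were seen. Gm37695, which starts 301 bases from Ebf1 on the opposite strand, had no count in either pool. Its annotation type was not among those taken as long noncoding, so it was left out of the pairs. The antisense neighbours of other factors that had values were low. Gm12158, in an intron of Ebf1, had 0.65 and 1.24 TPM, Gm15556, in an intron of Foxp4, had 0.48 and 0.66, and Gm15511, which shares 82 exon bases with Rora, had 0.27 and 0. Those annotated at Ebf3, Gm45278 and Gm10578, were not analysed here.

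**Figure D2:**
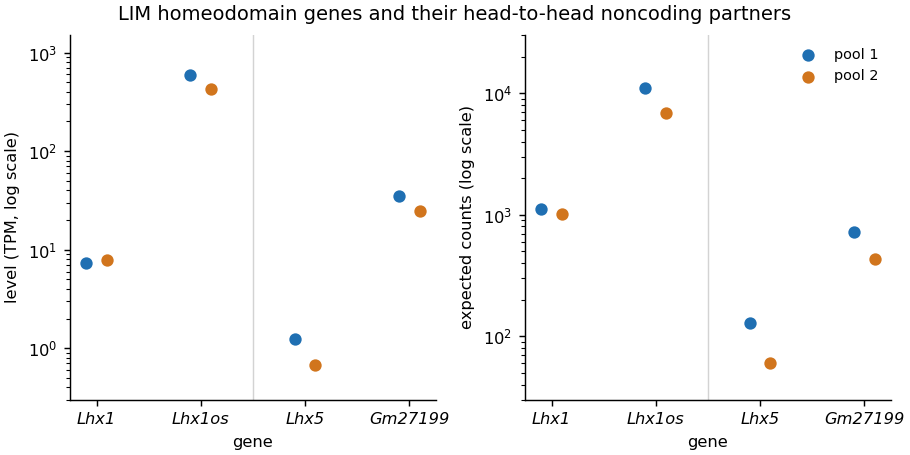
Levels as TPM (left) and expected counts (right), both on log axes, of Lhx1 and Lhx5 and of the noncoding genes that start beside them, with a point per pool. Lhx1os, at 598 and 431 TPM, lies above Lhx1 at 7.39 and 7.81, and Gm27199, at 35.3 and 24.7, above Lhx5 at 1.25 and 0.68.

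LIM homeodomain proteins act with the adaptor Ldb1 and single-stranded DNA-binding partners. Ldb1 itself had 1.19 TPM in pool 1 and 0.77 in pool 2, below Lhx1 in both. Ssbp2, a stabiliser of such complexes, had 11.6 and 19.2 TPM, Lmo2, a LIM-only protein that binds Ldb1, had 4.09 and 3.6, and Ssbp3 had 1.95 and 3.17. Of 9 cofactors listed, 3 were detected in both pools, 3 in a single pool and 3 in neither.

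Early B-cell factors persisted, with Ebf1 the highest. Ebf1 (ENSMUSG00000057098.10, chromosome 11, 44617317 to 45008091, plus strand), a helix-loop-helix type factor of neurons, B cells and fat, had 8.70 TPM in pool 1 and 8.22 in pool 2, from 2056 and 1691 counts. Ebf3 (ENSMUSG00000010476.9, chromosome 7, 137193673 to 137314445, minus strand) had 1.05 and 1.44 TPM, from 205 and 242 counts. Ebf2, a relative needed for Purkinje cell migration and survival, stood between them at 4.20 and 5.22 TPM. Ebf4 was without a count. The order Ebf1, Ebf2, Ebf3 was the same in both pools with no overlap. Ebf1 is also made by pericytes. Of the 8 endothelial and mural markers, 3 were detected in both pools, Ly6c1 at 14.8 and 10.9 TPM, Vtn at 3.77 and 1.56 and Rgs5 at 2.04 and 1.02, and the other 5, Pdgfrb and Kcnj8 among them, were between 0.01 and 0.93. The part of mural cells in the Ebf1 level was not tested. Of the EBF partners, Zfp521 had 0.94 and 1.35 TPM and Zfp423 had 0.43 and 0.76.

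Ebf1 reads went to the coding transcript Ebf1-201, with 96.8% of the gene's TPM in pool 1 and 100% in pool 2. Ebf3-201 held all of Ebf3 in pool 1 and 78.3% in pool 2, where Ebf3-204 held 21.7% from 53.4 counts. Ebf3-204 has the coding bases of Ebf3-201 and 108 more. That difference rests on few reads, and under the deposited posterior mean estimate Ebf3-201 held 72.3% and 49.8% and Ebf3-204 14.7% and 31.0%. Ebf1 was also the only factor whose count carried assignment error, with a posterior SD of 8.32 reads in pool 1 and 6.44 in pool 2. It was 0 for the other 9.

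FOXP factors were present at low levels. Foxp2 (ENSMUSG00000029563.12, chromosome 6, 14901349 to 15441977, plus strand), a forkhead repressor also known for its role in speech and motor learning, had 2.92 TPM in pool 1 and 3.17 in pool 2, from 552 and 653 counts. Foxp4 (ENSMUSG00000023991.12, chromosome 17, 47867133 to 47924645, minus strand), which has been tied to the upkeep of Purkinje dendrites, had 1.00 and 1.23 TPM, from 154 and 159 counts. Foxp2 exceeded Foxp4 2.92-fold in pool 1 and 2.58-fold in pool 2. Foxp1, which is not on the list, had 1.13 and 1.63 TPM, a range that overlaps that of Foxp4. Foxp3, the factor of regulatory T cells, had no count.

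Foxp2 reads were spread over 2 main coding transcripts, Foxp2-201 with 47.2% of TPM in pool 1 and 69.1% in pool 2, and Foxp2-207 with 24.9% and 30.9%. The same 2142 coding bases are in both, so they encode the same protein. They differ in their 5′ exons and in the length of the last exon, 3325 and 4101 bases. In pool 1 a further 13.4% of TPM lay on ENSMUST00000118133, which GENCODE M21 no longer lists, from 18.5 counts, and 11.2% on Foxp2-211, a retained intron form, from 22.2 counts. Neither had a count in pool 2. Of 19 transcripts of Foxp2 in the tables, 13 had no reads in either pool. Foxp4-204 held 85.1% and 87.6% of Foxp4. Foxp4-203, which has 39 coding bases of its own and lacks 6, held 14.9% and 8.75%, from 18.55 and 11.52 counts. Under the deposited posterior mean estimate Foxp4-204 held 59.98% and 64.11%, and Foxp2-201 held 36.55% and 54.14% of Foxp2.

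**Figure D3:**
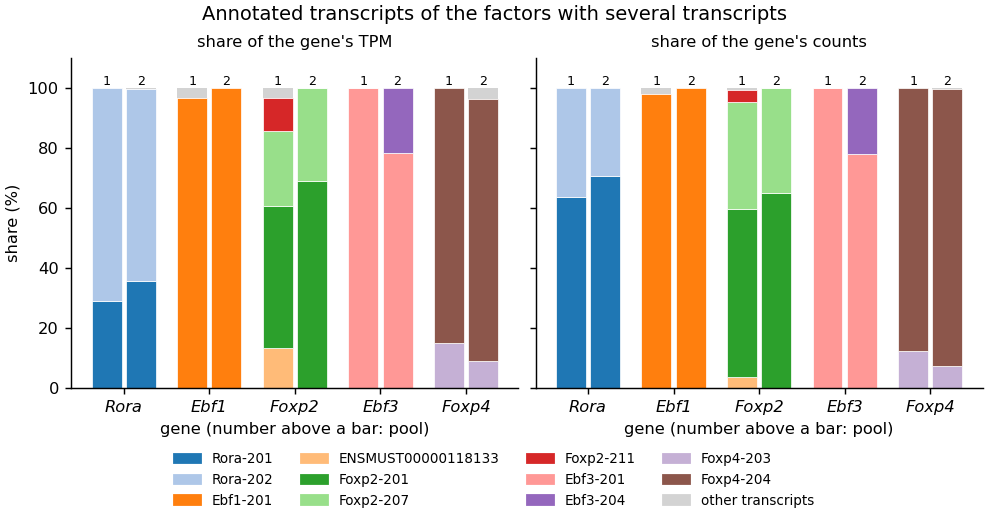
Share of each gene's TPM (left) and of its expected counts (right) per annotated transcript, in percent, with a bar for pool 1 and for pool 2 of each gene. Transcripts with at least 10% on either measure have a colour. Rora-202 is the larger part by TPM (71.1% and 64.1%) and Rora-201 by counts (63.7% and 70.6%), while Ebf1 and Foxp4 were mostly a single transcript on these 2 measures.

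The main transcript by TPM was the same in both pools for all 6 factors that have several transcripts and at least 10 counts in each pool. Over 8328 genes that meet the same terms the share was 82.5%.

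Skor2 and the engrailed genes were near zero. Skor2 (ENSMUSG00000091519.1, chromosome 18, 76856405 to 76900342, plus strand), a SKI family corepressor that young Purkinje cells need to mature, had 0.06 TPM in pool 1 and 0.14 in pool 2, from 7 and 15 counts. The only Skor2 transcript listed has 3141 bases, of which 3024 are coding. Reads past its annotated ends would not be counted, and this was not tested. En1 (ENSMUSG00000058665.8, chromosome 1, 120602418 to 120607992, plus strand) had 0.13 and 0.19 TPM, from 13 and 17 counts. En2 (ENSMUSG00000039095.8, chromosome 5, 28165694 to 28172166, plus strand) had 0.36 and 0.08 TPM, from 50 and 10 counts. All were above the TPM that 3 counts would give, which was between 0.0216 and 0.0335 for these genes. They were not absent from the libraries, and at these counts their order was not fixed: En1 was below En2 in pool 1 and above it in pool 2.

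Their relatives and partners were not all low. Skil, another SKI family corepressor and a brake on TGF-beta signalling, was 120-fold above Skor2 in pool 1 and 88.9-fold in pool 2, at 7.19 and 12.4 TPM. Skor1, the nearest relative of Skor2, had 2.36 TPM in pool 1 and 0.49 in pool 2, and Ski had 0.96 and 2.28. Among 18 partners of EBF, FOXP, engrailed and nuclear receptor proteins, 11 were detected in both pools. They were led by Ncoa1, a nuclear receptor coactivator, at 19.6 and 35.7 TPM, Aes, a Groucho family protein, at 13.6 and 31.2, and the corepressor Ncor1 at 13.1 and 11.6.

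Factors that act before Purkinje cells exit the cell cycle were under a TPM of 1 throughout. None of 8 ventricular zone progenitor factors was detected in either pool, and 5 of them, Ptf1a among these, had no count. Neurog2, a proneural factor, had 0.03 and 0.07 TPM, and Olig2 had 0.02 and 0. Of 7 genes of the organiser at the border of midbrain and hindbrain, which sets up engrailed expression, none was detected and 4 had no count. Otx2 was the highest at 0.22 and 0.18 TPM. Factors of cerebellar interneurons and nuclear neurons were under a TPM of 1 in 9 of 9 cases, led by Tfap2b at 0.53 and 0.63, Tfap2a at 0.31 and 0.28 and Eomes at 0.39 and 0.16.

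Granule cell lineage factors were an exception among other lineages. Of 11 listed, 6 were detected in both pools, among them Zic1 at 9.13 and 11.8 TPM, Neurod1 at 7.39 and 10.9, and Etv1 at 4.84 and 7.09. Ebf1 and Lhx1 had between 7.39 and 8.7 TPM. Granule cells lie against Purkinje cells in tissue, and En2 is made by adult granule cells too. The 8 granule cell markers ran from Slc17a7, at 0.24 and 0.27 TPM, to Zic1, with the receptor gene Gabra6 at 8.99 and 8.96, beside 0.36 and 0.08 TPM for En2. The share of granule cell RNA in these levels was not tested.

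**Figure D4:**
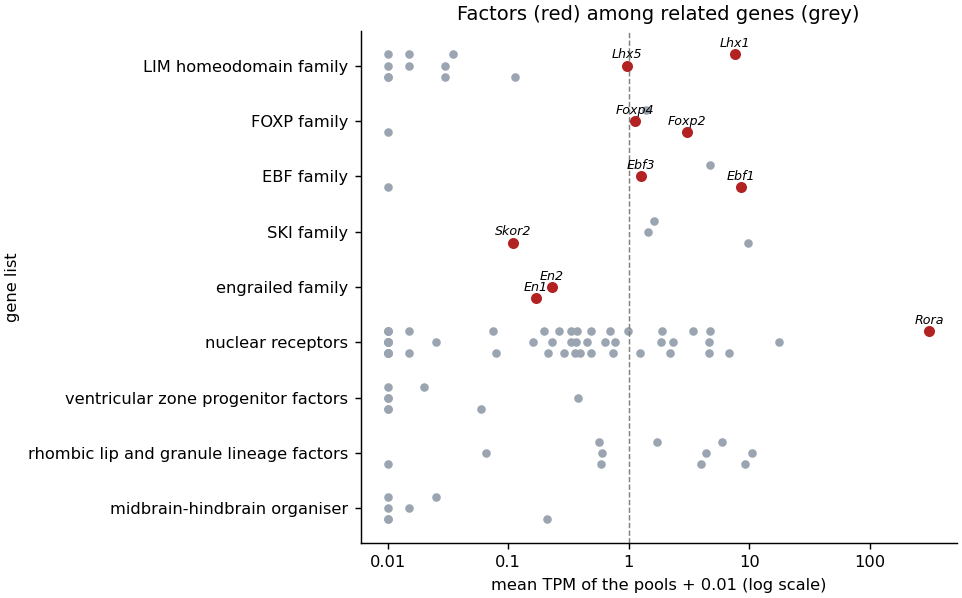
Mean TPM of the pools plus 0.01 on a log axis for the 10 factors (red, named) and the other genes of each list (grey). Points are shifted vertically only to keep them apart, and the dashed line marks a TPM of 1. Rora, at 313 TPM, stands far to the right of the other nuclear receptors, and the ventricular zone and organiser genes lie left of the line.

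The order by mean TPM was Rora, Ebf1, Lhx1, Foxp2, Ebf3, Foxp4, Lhx5, En2, En1 and Skor2. Neighbours from Rora to Ebf3 did not overlap between the pools, although Ebf1 exceeded Lhx1 by only 1.18-fold and 1.05-fold. Ebf3, Foxp4 and Lhx5 overlapped each other in turn, as did En2, En1 and Skor2. Lhx5 and En2 did not overlap.

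Between the pools 8 of the 10 factors stayed within 2-fold, and the exceptions were Lhx5 and En2, both higher in pool 1. Counts were scaled by TMM, which sets libraries level on most genes, and a ratio past 2-fold with a prior of 0.5 counts was called. There is 1 library on each side, so this compares the libraries and has no replicate check. Of the 10 factors 2 were past 2-fold, none of them higher in pool 2. Among 14478 genes with at least 10 counts, 16.1% were past 2-fold with pool 2 higher and 15.3% with pool 1 higher. The median log2 ratio, pool 2 over pool 1, was -0.1 for the factors and -0.01 for all these genes.

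Lhx5 was 2.22-fold higher in pool 1 (exact 95% interval 1.62 to 3.07, for counting error only). En2 was 5.21-fold higher in pool 1 (2.61 to 11.5). A difference of this kind was common at low counts, since 57.9% of genes with 10 to 100 counts in total were past 2-fold, as were 23.6% of those with 100 to 1000 and 5.61% above that. Scaled by total counts, Lhx5 was at a log2 ratio of -0.95, short of 2-fold, against -1.15 with TMM. Skor2 was at 2.06-fold in the other direction before the prior was added (interval 0.79 to 5.96) and at a log2 ratio of 0.99 after it, on 22 counts in total.

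Of the 3 factors with the most reads, Rora was 1.42-fold higher in pool 1 (interval 1.40 to 1.44), Ebf1 1.27-fold (1.19 to 1.35) and Lhx1 1.14-fold (1.05 to 1.25). Foxp2 was higher in pool 2 at a ratio of 1.14 (1.01 to 1.27), and so by its point value was Ebf3, at 1.13 (0.937 to 1.37). Foxp4 was at 0.991 (0.789 to 1.25) and En1 at 1.26 (0.574 to 2.81). The noncoding partners were higher in pool 1 as well, Lhx1os 1.67-fold (1.62 to 1.72) and Gm27199 1.73-fold (1.53 to 1.95). All these intervals cover counting error only. Over 11849 genes with at least 10 counts in each pool, the spread between the pools beyond counting error was a coefficient of variation of 0.37. The intervals leave this spread out. Purkinje markers had a median log2 ratio of -0.35 and Bergmann glia and astrocyte markers one of 0.71. The part of this difference in cell content was not tested. The sign of a small ratio depended on scaling. With TMM 4 of 10 factors were higher in pool 2, with total counts 6, Lhx1 (log2 ratio 0.0011) and Foxp4 (0.18) joining, and with spike-in totals Skor2 alone. The median log2 ratio of all genes was 0.19 with total counts and -0.77 with spike-in totals.

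**Figure D5:**
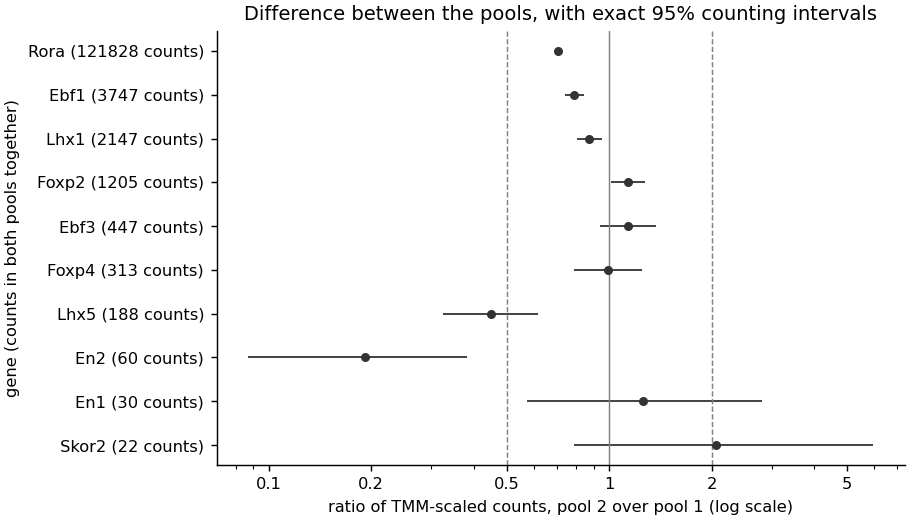
Ratio of TMM-scaled counts, pool 2 over pool 1, on a log axis for each factor, with the exact 95% counting interval as a bar and no prior count. Dashed lines mark 2-fold. Lhx5 and En2 lie left of the lower line, Skor2 at 2.06 lies just past the upper one without the prior, and the intervals widen from Rora (121828 counts) down to Skor2 (22 counts).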

How the data were processed

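RNA of 2 laser-captured pools was amplified with a SMARTer Ultra Low kit, per the labels' protocols. Per the text deposited with each sample, tables were made per library on mm10 with GENCODE M4; aligner, quantifier and version: not given in the sources used here. The deposited columns used were expected counts, TPM (the authors' length-corrected level), FPKM (alternatives only) and each transcript's percent of the gene's TPM.

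Gene names, biotypes and positions were read from GENCODE M21, also on mm10, where 47 of 52 transcripts of the factors had the deposited length. Rows with numeric identifiers (0.000412% and 0.000194% of counts) and spike-ins (0.211% and 0.411%) were left out of scaling. Counts were rounded for scaling and intervals. Ratios used edgeR 4.0.16 TMM sizes, with total counts, DESeq2 1.42.0 size factors and spike-in totals as alternatives. Intervals were exact binomial (scipy 1.17.1) and cover counting error only, since no molecular identifiers are named. The ratio was tested on simulated data. With 1 group no hypothesis test was made.

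The factors and gene lists were chosen with earlier results of these data known. Named genes are all 10 factors, the 3 highest of each list with family members of the factors, the 2 highest cell type markers, and transcripts with at least 10% of TPM. Others were named after their values were seen: Lhx1os, Gm27199 and other neighbours, Shh, Itpr1, Slc1a6, Ptf1a, Ldb1, Zfp423, Zfp521, Gfap, Kit, Gabra6, Slc17a7, Rgs5, Pdgfrb, Kcnj8 and Rora-204. No gene was named for a like pattern, since 2 libraries give none. Motif matches and promoter windows used RefSeq promoters of GRCm38.p6. Protein sequences were not used here, and a few listed genes are not reported here.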

Additional observations from a re-analysis of the deposited data

How the results depend on the processing

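Of 18 alternatives run on the 3 counts of factors (detected in both pools, past 2-fold, same main transcript), 16 stayed within 1.5 times. The exceptions were 3 factors detected at a TPM of at least 5, against 6 at 1, and 4 past 2-fold under spike-in totals, against 2. The first follows from the stricter threshold, and the 4 were Rora, Ebf1, Lhx5 and En2. Leaving out either pool gave 6 to 7 detected factors. Equal counts hid different genes: under total counts the 2 past 2-fold were En2 and Skor2. DESeq2 size factors, and a ratio with no prior count, which was added after the data were seen, gave 3, with Skor2 joining. En2 ran from a log2 ratio of -3.07 (spike-in totals) to -0.33 (TPM + 1). Depth limits Skor2, En1 and En2 most, with 22 to 60 counts in total. No paired analysis was possible because the labels give a single group.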
